A study of Homo sapiens with 30 samples.

Results

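The chromatin of 10 genes of the ventral neural tube and of Sonic hedgehog signalling was followed by ATAC-seq peaks in H1 cells on their way to neural ectoderm. The members are SHH, PTCH1, GLI1, NKX2-1, NKX2-2, NKX6-1, NKX6-2, OLIG2, DBX1 and DBX2, which is 10 of the 19604 protein-coding genes with a peak in at least 1 list. They form a set named for function, and it was put together with earlier results of these data known. For each gene, every ATAC-seq peak that overlapped the GRCh38 gene body with 50 kb added on each side was counted, and the bases inside those peaks were summed as covered bases. Merged over all lists, these peaks made 286 regions, against 493444 regions in the whole series.

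Sonic hedgehog is a secreted protein that the notochord and floor plate release at the ventral side of the developing neural tube. It binds the receptor PTCH1, which frees the membrane protein SMO from inhibition and lets the GLI transcription factors activate targets that include PTCH1 and GLI1 themselves. Along the resulting gradient NKX2-2, OLIG2, NKX6-1 and NKX6-2 mark ventral progenitor domains, DBX1 and DBX2 mark progenitors between dorsal and ventral, and NKX2-1 marks the ventral forebrain.

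The libraries were OmniATAC-seq, in which the Tn5 transposase cuts and tags accessible DNA, from 50000 wild-type H1 cells each. H1 is an established human embryonic stem cell line. The labels give 30 libraries, 3 biological replicates for each of 10 populations. The deposited files were 10 peak lists, 1 for each population. Undifferentiated cells (hPSC) were taken on day 0. Definitive ectoderm (DE) was taken after 1 day in A8301 (a TGF-β receptor inhibitor) at 1 µM, Trametinib (MEK inhibitor) at 250 nM, C59 (WNT secretion inhibitor) at 1 µM and LDN193189 (BMP receptor inhibitor) at 100 nM, and every later population also passed through this day. Anterior neural ectoderm (aNE) then had a second day in A8301 at 1 µM, LDN193189 at 100 nM and C59 at 1 µM. Posterior neural ectoderm (pNE) had A8301 at 1 µM and LDN193189 at 100 nM with the retinoic acid receptor agonist TTNPB at 50 nM, the growth factor FGF2 at 20 ng/mL and XAV939, which blocks WNT signalling, at 1 µM. Both day 2 media also held Thiazovivin, given for survival, at 1 µM. From aNE and from pNE, cells then went into a medium for telencephalon, for midbrain or for hindbrain until day 4 (aNE_T, aNE_M, aNE_H, pNE_T, pNE_M and pNE_H). Below, 3 day 4 values of an origin stand in the order telencephalon, midbrain, hindbrain. The telencephalon medium held, on day 3, XAV939 at 1 µM, LDN193189 at 100 nM and FGF2 at 20 ng/mL. Its later composition and that of the midbrain and hindbrain media are not given in the sources used here, and no hedgehog ligand, agonist or inhibitor is named in the text that is. The cells of the aNE and pNE lists were plated at 37500 per square cm. Cells kept past day 2 were plated at 75000 per square cm on the anterior route and 150000 on the posterior route. Origin and plating density therefore cannot be told apart on day 4. Nor can day and plating density between the day 2 and day 4 lists.

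A list holds peak positions without a score, a read count or a value per replicate. No value below therefore has a replicate error, read depth is unknown, and a base outside a peak cannot be called closed beyond the unknown depth of its list. On chromosomes 1 to 22, X and Y the shortest list was aNE with 167792 peaks and the longest pNE_H with 313095. Peaks covered 75.5 Mb in aNE, 129 Mb in pNE_H and between 84.0 and 93.9 Mb in the other 8. Because pNE_H was the longest list, each value was also taken as a share, in covered bp per Mb of the list's own covered bases. The narrowest peak was 122 to 126 bp wide in the aNE-derived day 4 lists and 109 to 115 bp in the pNE-derived ones, and the part of this in any difference was not tested. Windows of marker genes were set beside the labels. These genes were chosen with earlier results of these data known, so they are not an independent check. Of 5 posterior marker genes 3 (HOXB1, HOXB2 and HOXA2) had more covered bases in every pNE-derived than in any aNE-derived day 4 list on both scales. Among coding genes 8.43% did so in covered bases and 5.74% as a share. The windows of the neighbouring genes HOXB1 and HOXB2 overlap and share peaks, so these genes are not separate evidence. Of 5 anterior marker genes 0 had more in every aNE-derived list in covered bases (background 1.30%), and OTX2 and FEZF1 (2 of 5) did as a share (27.4%). A peak near a gene does not show that the gene was transcribed.

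The sequences of 4 promoters show the range of what was found at the members' starts. Promoter here means the 300 bases from 250 before to 50 after a RefSeq start (GRCh38.p14). In all 12 such entries matched 6 members (SHH, PTCH1, NKX2-1, NKX2-2, NKX6-1 and DBX1). All are on the minus strand and are printed 5′ to 3′ on that strand. In the PTCH1 entry at chr9:95509217-95509516 the capitals mark the reverse complement of the GLI motif GACCACCCA. In NKX2-1 at chr14:36520183-36520482 they mark the bases inside the aNE peak, and in NKX2-2 at chr20:21522640-21522939 the bases inside a peak in all 10 lists. SHH at chr7:155812414-155812713 has no capitals, because no list had a peak there.
PTCH1: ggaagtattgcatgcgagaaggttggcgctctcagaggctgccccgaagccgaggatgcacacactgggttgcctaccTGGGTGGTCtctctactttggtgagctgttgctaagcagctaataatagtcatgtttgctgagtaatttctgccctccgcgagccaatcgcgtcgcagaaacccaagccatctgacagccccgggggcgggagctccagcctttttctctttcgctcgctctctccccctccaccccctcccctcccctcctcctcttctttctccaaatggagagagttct
NKX2-1: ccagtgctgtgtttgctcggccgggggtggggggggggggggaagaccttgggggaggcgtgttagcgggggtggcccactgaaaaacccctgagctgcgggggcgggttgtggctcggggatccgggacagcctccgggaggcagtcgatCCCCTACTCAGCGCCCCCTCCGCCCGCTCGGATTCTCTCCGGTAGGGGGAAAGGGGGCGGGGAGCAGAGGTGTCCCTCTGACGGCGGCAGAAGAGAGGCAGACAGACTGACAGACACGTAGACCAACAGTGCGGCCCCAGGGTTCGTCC
NKX2-2: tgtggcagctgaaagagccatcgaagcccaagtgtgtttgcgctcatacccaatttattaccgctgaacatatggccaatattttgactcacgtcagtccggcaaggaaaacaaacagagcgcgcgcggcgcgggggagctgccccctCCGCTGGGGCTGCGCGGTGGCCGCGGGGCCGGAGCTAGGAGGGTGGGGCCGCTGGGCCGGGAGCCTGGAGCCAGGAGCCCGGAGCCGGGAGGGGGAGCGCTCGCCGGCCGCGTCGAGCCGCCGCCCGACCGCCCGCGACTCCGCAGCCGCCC
SHH: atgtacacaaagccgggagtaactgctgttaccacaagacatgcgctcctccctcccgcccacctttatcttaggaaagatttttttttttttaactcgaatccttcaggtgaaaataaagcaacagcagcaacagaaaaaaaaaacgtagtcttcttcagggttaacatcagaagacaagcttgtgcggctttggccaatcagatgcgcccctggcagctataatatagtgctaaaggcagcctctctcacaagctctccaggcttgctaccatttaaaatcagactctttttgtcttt

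The GLI match lay at positions 79 to 87 of the PTCH1 promoter, counted from its 5′ end. Peaks covered 241 of the 300 bases in hPSC, 239 in DE and all 300 in the other 8 lists. Among 35116 RefSeq promoters, 83 (0.236%) held this string on either strand. None of the other 11 member promoters held it. None of the 12 held CACTTNA (NK2 homeodomain, in 10.2% of all promoters), AACAATG (SOX, 3.33%), the DR5 retinoic acid element (0.00570%) or the DR2 element (0.00285%), all searched on both strands. Such a match is a string and not a bound site. Peaks lay on 4 to 6 of the 12 member promoters per list, where 58.4% to 63.4% of all RefSeq promoters had one. These are entries and not genes, since 5 of the 12 belong to PTCH1 and 4 members have none. Of those 4, GLI1, OLIG2 and DBX2 had peaks within 1000 bp of a gene end in all 10 lists, and NKX6-2 in 8.

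**Figure D1:**
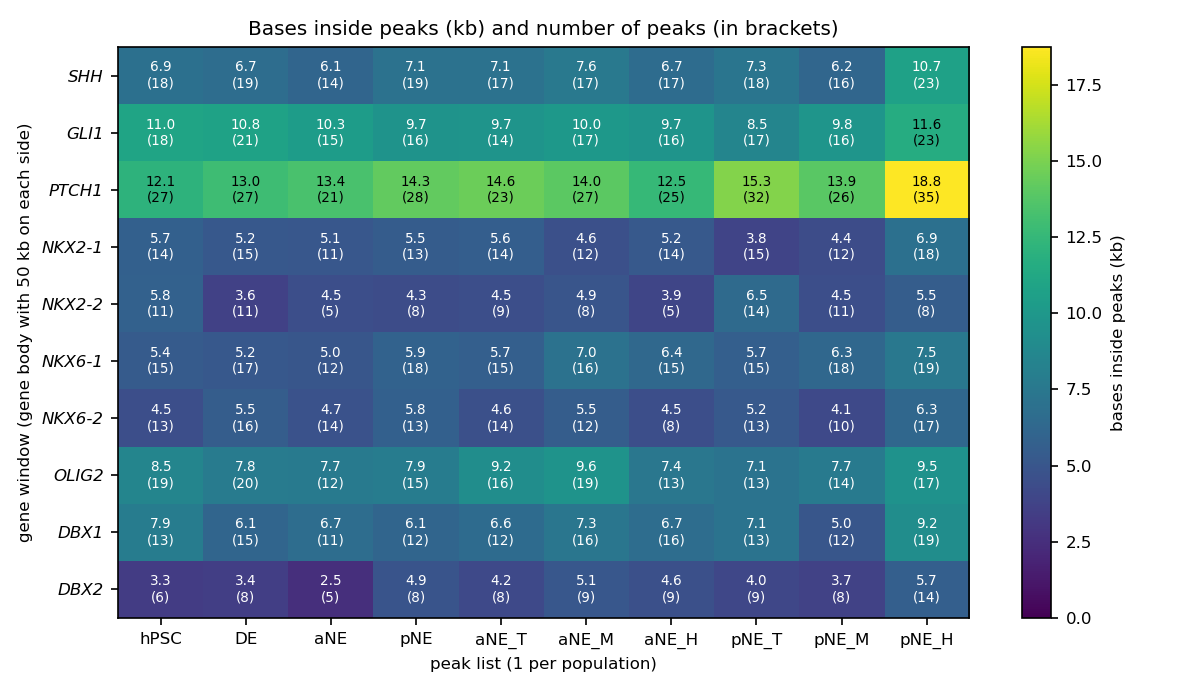
Bases inside peaks in kb (colour and upper number) and number of peaks (in brackets) for each gene window (rows) in each of the 10 peak lists (columns). PTCH1 had the most covered bases in every list, and pNE_H was the highest list for 8 of the 10 genes.

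SHH, the secreted ligand, lies at chr7:155799980-155812463 on the minus strand, and its window also holds part of RBM33. Its covered bases were 6942 bp in hPSC, 6692 in DE, 6144 in aNE and 7052 in pNE. The day 4 values were 7052, 7553 and 6658 bp in the aNE-derived lists, and 7305, 6221 and 10735 bp in the pNE-derived lists. The pNE_H list alone stood high, with 23 peaks against 14 to 19 elsewhere, and the origins overlapped. As a share of the list pNE_H was again highest, but only at 83.1 bp per Mb against 71.2 in DE, the lowest.

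The SHH promoter had no peak in any list, while a site just inside the gene (within 1000 bp of the start) had 140 bp covered in aNE_M, 152 in pNE_T and 220 in pNE_M. The widest SHH region found in all 10 lists lay in the gene body at chr7:155804613-155805981, with peaks of 574 bp in pNE_T to 1303 bp in aNE_T. A region 31.6 kb from the start on its upstream side, chr7:155843576-155844582, had peaks of 535, 547 and 1007 bp in the pNE-derived lists and none in the aNE-derived day 4 lists. Earlier lists had narrow peaks there, of 186 bp in hPSC, 127 in aNE and 136 in pNE. The opposite pattern was found at chr7:155754257-155754705, inside RBM33 and 45.5 kb from the other end of SHH. Its peaks were 378, 280 and 260 bp wide in the aNE-derived lists, 351 in aNE, 449 in DE and 161 in hPSC, and pNE and the 3 pNE-derived lists had none. In lists reduced to their widest peaks at 1 common length, both SHH regions kept their split.

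PTCH1, the receptor and a hedgehog target, lies at chr9:95442980-95516971 on the minus strand and is the longest member at 73992 bp, with no other protein-coding gene in its window. It had the most covered bases in each list, in a window that is also the longest. They were 12144 bp in hPSC, 12954 in DE, 13365 in aNE and 14261 in pNE. The day 4 values were 14570, 14047 and 12530 bp in the aNE-derived lists, and 15278, 13929 and 18751 bp in the pNE-derived lists. Peak numbers ran from 21 in aNE to 35 in pNE_H. The hPSC list was lowest in covered bases. As a share DE was lowest at 138 bp per Mb and aNE highest at 177.

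The most upstream PTCH1 promoter, chr9:95516922-95517221, lay wholly inside a peak in all 10 lists. The promoter with the GLI match was wholly inside a peak in 8 lists and partly in hPSC and DE. The 3 other PTCH1 promoter entries had no peak, apart from 50 bases of chr9:95507991-95508290 in aNE_M. Those 50 bases belong to a narrow region, chr9:95507751-95508040, with peaks of 149 bp in aNE and 168, 154 and 183 bp in the aNE-derived lists and none in the other 6 lists. Beyond the 3′ end, 31.7 kb away, chr9:95410609-95411891 had no peak in hPSC, DE or aNE and 340 bp in pNE. There the day 4 peaks were 644, 559 and 479 bp in the aNE-derived lists and 1186, 548 and 859 bp in the pNE-derived lists. The widest PTCH1 region in all 10 lists was at chr9:95494447-95496402, inside the gene, with 416 bp in pNE_M to 1770 bp in aNE_T.

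GLI1, the transcription factor that amplifies the signal, lies at chr12:57459785-57472268 in a crowded stretch with 8 other protein-coding genes in its window. Of its 31 regions, 27 lay in another gene only and 2 in the GLI1 body. Covered bases were 10974 bp in hPSC, 10788 in DE, 10331 in aNE and 9650 in pNE. They were 9693, 9973 and 9726 bp in the aNE-derived lists, and 8545, 9757 and 11609 bp in the pNE-derived lists. The aNE-derived lists lay close together inside the range of the pNE-derived ones. The window varied little, 1.36-fold between its lowest and highest list, as did that of OLIG2. A region of the gene body, chr12:57460600-57463007, carried wide peaks in all 10 lists (1638 bp in DE to 2371 in pNE_H). At chr12:57503929-57504304, inside MARS1, the aNE-derived lists had 152, 292 and 376 bp, DE had 119 and pNE 217, and no pNE-derived day 4 list had a peak.

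**Figure D2:**
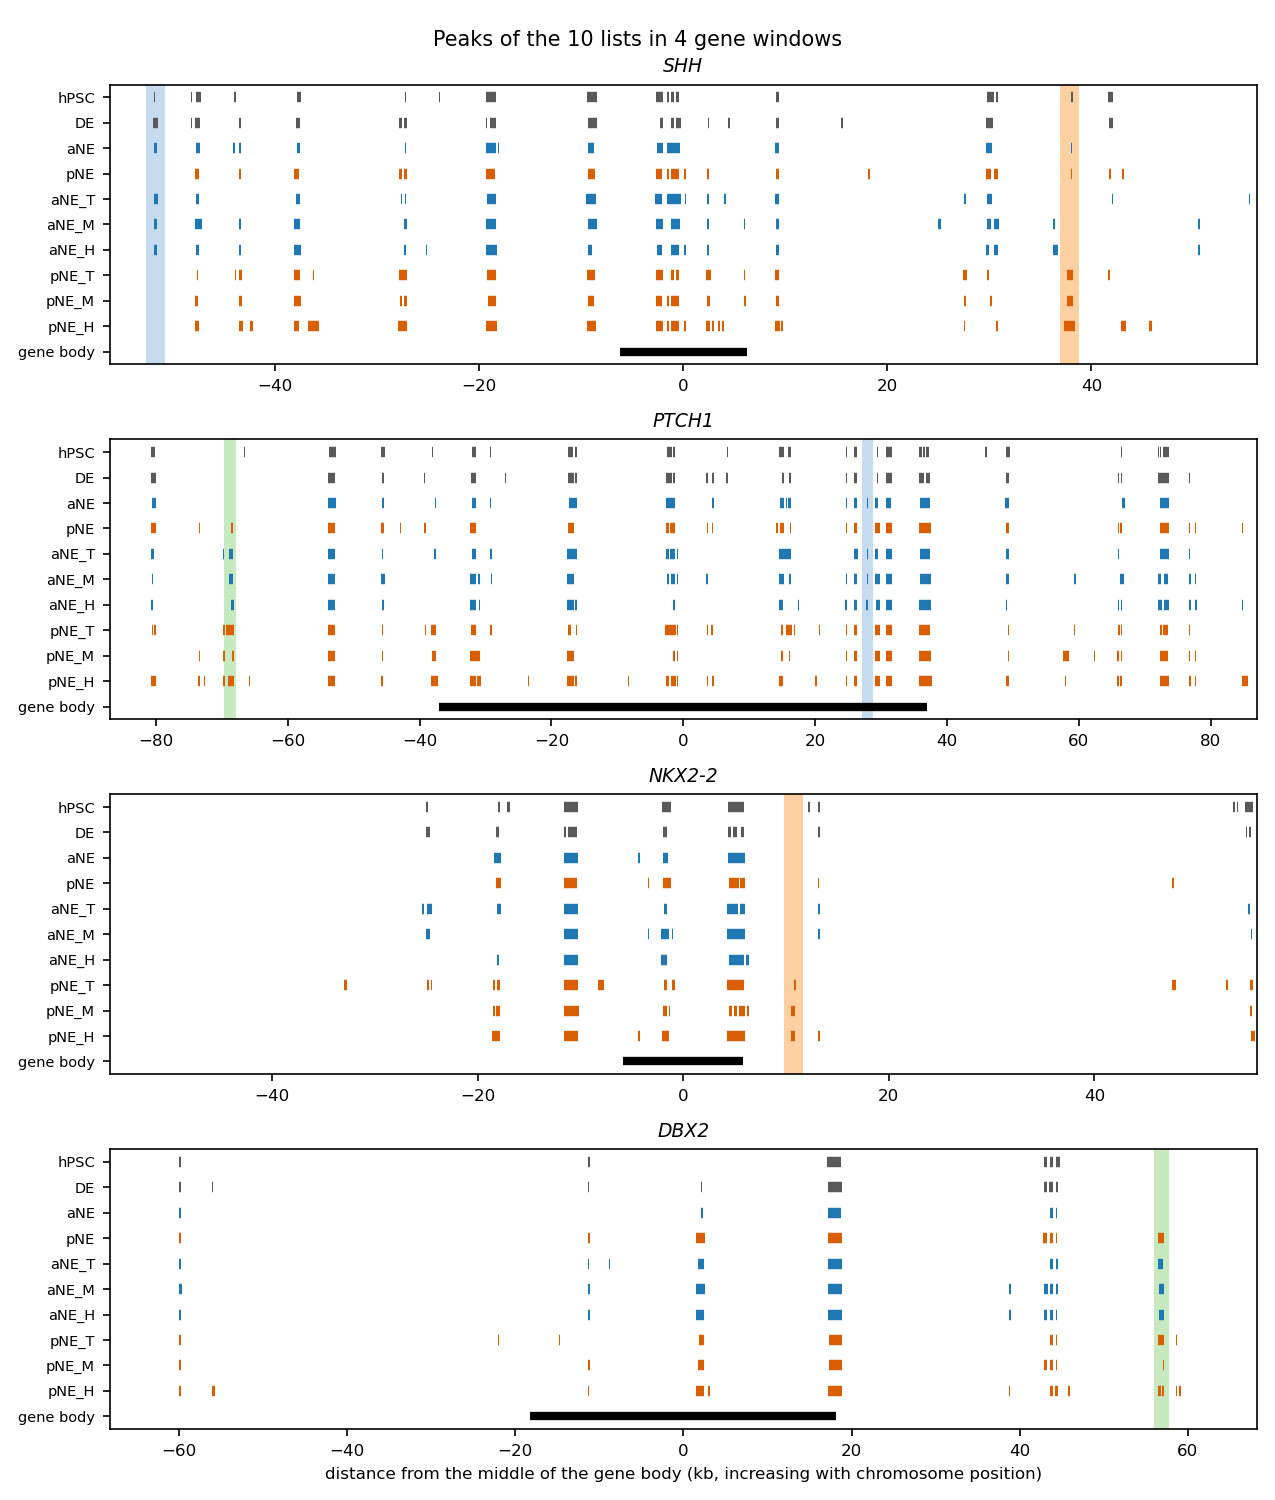
Peaks (short bars, to scale) of the 10 lists (rows) against distance in kb from the middle of the gene body for SHH, PTCH1, NKX2-2 and DBX2, with hPSC and DE in grey, aNE and its derivatives in blue and pNE and its derivatives in orange. Shading (drawn wider than the regions) marks regions open in all pNE-derived and no aNE-derived day 4 list (orange), the reverse (blue) and regions without a peak in hPSC and DE but with one in all 6 day 4 lists (green).

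NKX2-1, the homeodomain factor of the ventral forebrain, lies at chr14:36516397-36520232 on the minus strand. Its covered bases were 5737 bp in hPSC, 5194 in DE, 5080 in aNE and 5462 in pNE. The day 4 values were 5637, 4605 and 5213 bp in the aNE-derived lists, and 3817, 4381 and 6903 bp in the pNE-derived lists. The pNE-derived lists thus held both the lowest and the highest value of all 10. The promoter printed above was partly covered in 6 lists, by 60 bases in hPSC, 38 in DE, 149 in aNE, 117 in pNE, 82 in aNE_T and 76 in pNE_H. It had no peak in aNE_M, aNE_H, pNE_T or pNE_M. The second NKX2-1 promoter entry, chr14:36519507-36519806, had a peak in hPSC (171 bases) and DE (156) and in no later list.

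Within 1000 bp of the start of NKX2-1, 764, 710 and 648 bp were covered in hPSC, DE and aNE. There pNE had 368 bp, and the day 4 lists had 527, 208 and 173 bp (aNE-derived) and 184, 121 and 400 bp (pNE-derived). The 3 highest values were thus those of hPSC, DE and aNE. There were 2 NKX2-1 regions found in all 3 pNE-derived and no aNE-derived day 4 list. At chr14:36559701-36560049, 39.6 kb upstream in LOC105370453, they measured 178, 248 and 349 bp in the pNE-derived lists, with none elsewhere. At chr14:36518900-36519276, in the gene body and also in SFTA3, they measured 144, 253 and 336 bp, and aNE also had 335. The widest region in all 10 lists, chr14:36503969-36505187, lay in SFTA3, 11.8 kb from the gene, with 613 bp in pNE_M to 1141 in aNE. Of the 21 NKX2-1 regions, 17 lay in another annotated gene only and 3 in the NKX2-1 body.

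NKX2-2, which marks the progenitors next to the floor plate, lies at chr20:21511017-21522689 on the minus strand. Its covered bases were 5807 bp in hPSC, 3633 in DE, 4473 in aNE and 4329 in pNE. The day 4 values were 4520, 4928 and 3907 bp in the aNE-derived lists, and 6470, 4525 and 5548 bp in the pNE-derived lists. DE was lowest and pNE_T highest, on the share scale too (38.7 and 72.3 bp per Mb). Peaks numbered 9, 8 and 5 in the aNE-derived day 4 lists and 14, 11 and 8 in the pNE-derived ones. In each medium the pNE-derived list thus had more peaks than the aNE-derived one, although their ranges overlapped.

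A region over the NKX2-2 start, chr20:21521085-21522870, was the widest in all 10 lists, at 1092 bp in DE to 1746 in pNE_H. It took in 152 promoter bases common to all lists, the capitals above. A second NKX2-2 promoter entry, chr20:21512911-21513210, had no peak in any list. At chr20:21527333-21527780, 4.87 kb upstream, peaks of 201, 398 and 364 bp stood in the pNE-derived lists and in no other list. This region also kept its split in lists of 1 common length.

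NKX6-1, a homeodomain factor of the broad ventral progenitor zone, lies at chr4:84491985-84499292 on the minus strand. Its covered bases were 5374 bp in hPSC, 5157 in DE, 5020 in aNE and 5908 in pNE. They were 5670, 7048 and 6369 bp in the aNE-derived lists, and 5686, 6264 and 7476 bp in the pNE-derived lists. The telencephalon list was lowest within each origin, with nearly the same value in both origins. The NKX6-1 promoter, chr4:84499243-84499542, lay wholly inside a peak in all 10 lists. The region around it, chr4:84498158-84499962, carried 796 bp of peaks in DE, 830 in aNE_T and 812 in pNE_T but 1705 in pNE_M, the widest. No NKX6-1 region separated the day 4 origins.

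NKX6-2, its close relative, lies at chr10:132783181-132786147 between INPP5A and CFAP46. Covered bases were 4526 bp in hPSC, 5536 in DE, 4733 in aNE and 5783 in pNE. They were 4608, 5506 and 4527 bp in the aNE-derived lists, and 5238, 4140 and 6252 bp in the pNE-derived lists. The midbrain list was highest among the aNE-derived lists and lowest among the pNE-derived ones. Of 28 regions 19 lay in another gene only, among them chr10:132753634-132753913 in INPP5A, with 280, 114 and 172 bp in the pNE-derived lists and no peak elsewhere. The widest region in all 10 lists, chr10:132774111-132775666, was also in INPP5A, with 407 bp in aNE_T to 1311 in aNE_H.

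OLIG2, the factor of motor neuron and oligodendrocyte progenitors, lies at chr21:33025935-33029185, and the window also holds its relative OLIG1. Covered bases were 8511 bp in hPSC, 7775 in DE, 7661 in aNE and 7869 in pNE. They were 9222, 9631 and 7427 bp in the aNE-derived lists, and 7105, 7707 and 9528 bp in the pNE-derived lists. The aNE-derived list was higher in the telencephalon and midbrain media and lower in the hindbrain medium. As a share it was higher in all 3 media, with means of 99.9 against 81.6 bp per Mb, but the ranges overlapped (88.4 to 106 and 73.8 to 91.5). A region 2.27 kb from the lower end of the gene, chr21:33023395-33023944, had a peak in all 6 day 4 lists and in no earlier one. It measured 408, 342 and 361 bp in the aNE-derived lists, and 143, 226 and 372 bp in the pNE-derived lists. The widest OLIG2 region in all 10 lists, chr21:33069907-33071787, lay over OLIG1, with 1519 bp in DE to 1855 in aNE_H.

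DBX1, a homeodomain factor of the progenitors at the dorsoventral boundary, lies at chr11:20156155-20160475 on the minus strand, with part of NAV2 in its window. Covered bases were 7909 bp in hPSC, 6123 in DE, 6712 in aNE and 6094 in pNE. They were 6580, 7346 and 6718 bp in the aNE-derived lists, and 7144, 5010 and 9198 bp in the pNE-derived lists. The aNE-derived values lay inside the much wider range of the pNE-derived ones. The DBX1 promoter, chr11:20160426-20160725, had no peak in any list. Just upstream of it, 0.914 kb from the start, chr11:20161297-20161482 had narrow peaks of 183 bp in hPSC, 167 in DE and 143, 137 and 134 in the aNE-derived lists. It had none in the pNE-derived lists, but in lists of 1 common length only the hPSC peak was left. At chr11:20193184-20193510, 32.9 kb upstream, peaks of 196, 249 and 217 bp stood in the aNE-derived lists, and of 272 bp in pNE. That region kept its split in lists of 1 common length. The widest region in all 10 lists, chr11:20207453-20209605, lay 48.1 kb upstream, with 1161 bp in pNE_T to 1762 in pNE_H.

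DBX2, the other DBX factor, lies at chr12:45014672-45051099. It had the fewest covered bases of the 10 in hPSC, DE, aNE, aNE_T and pNE_M, and per length of window the lowest median (2.99% of bases covered). Covered bases were 3320 bp in hPSC, 3444 in DE, 2530 in aNE and 4896 in pNE. They were 4160, 5112 and 4607 bp in the aNE-derived lists, and 3999, 3711 and 5670 bp in the pNE-derived lists. The aNE list was lowest of the 10, and DBX2 had the widest range of any member, 2.24-fold. As a share of the list, pNE was highest at 56.8 bp per Mb and aNE lowest at 33.5.

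The day 2 difference at DBX2 was largest at 2 of its regions. At chr12:45034367-45035467, in the gene body, hPSC had no peak, DE 143 bp and aNE 158 bp, whereas pNE had 965 bp. On day 4 it measured 739, 1020 and 940 bp in the aNE-derived lists, and 687, 655 and 937 bp in the pNE-derived lists. At chr12:45089357-45090095, 38.6 kb beyond the upper end of the gene, hPSC, DE and aNE had no peak and pNE had 730 bp. The day 4 peaks were 620, 613 and 652 bp in the aNE-derived lists, and 632, 176 and 577 bp in the pNE-derived lists. A further 2 DBX2 regions had a peak in pNE (467 and 197 bp) and none in aNE, but hPSC and DE had peaks there too. The first pair of regions was thus wide in pNE on day 2 and in the aNE-derived lists on day 4, with aNE itself narrow or without a peak. The region over the upper end of the gene, chr12:45049977-45051772, hardly varied, from 1474 bp in pNE_T to 1700 bp in pNE.

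**Figure D3:**
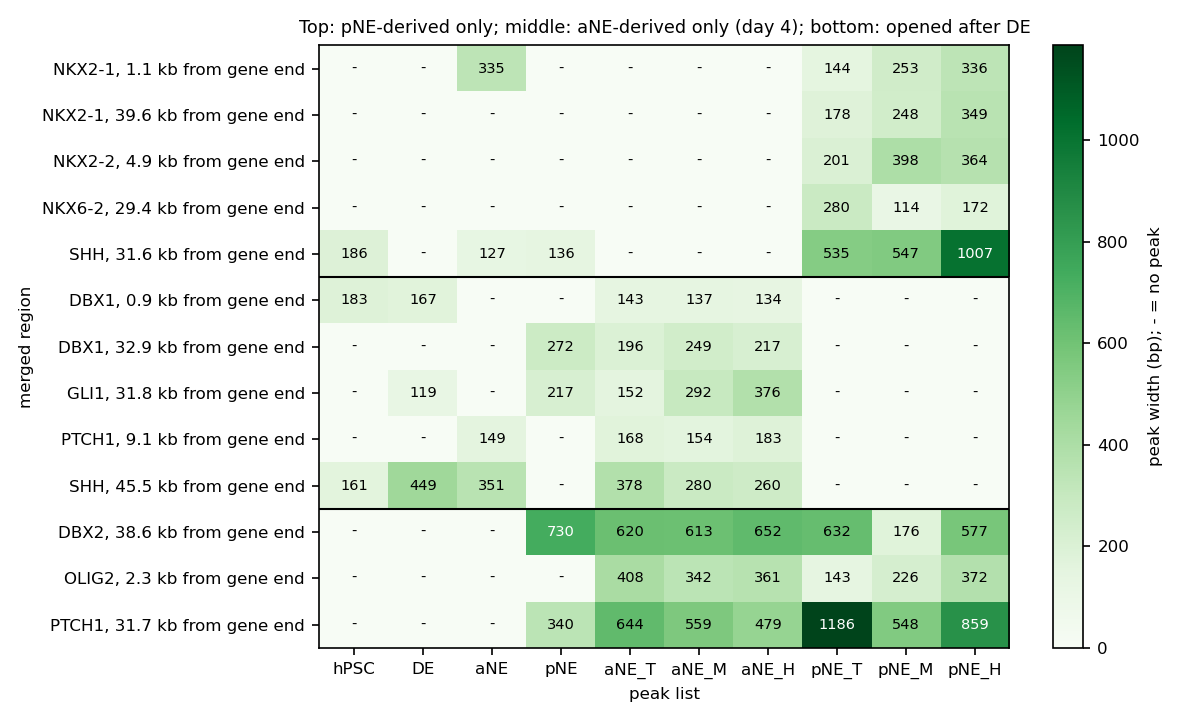
Peak width in bp (colour and number, a dash for no peak) in each list (columns) of the merged regions that split the day 4 lists by origin (top and middle blocks) or had no peak in hPSC and DE and a peak in all 6 day 4 lists (bottom block). Each region is named by its gene and the distance of its midpoint from the nearest gene end, and most origin-split peaks were under 400 bp wide, apart from the SHH region at 31.6 kb.

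Whether the 2 origins differed at these genes on day 4 was asked over 3 lists each. No member separated, that is, none had all 3 lists of an origin outside the range of the other 3 in covered bases, 0 of 10. Among all protein-coding genes 8.43% separated with pNE-derived higher, 1.30% with aNE-derived higher and 9.73% either way. Counting peaks in place of bases also gave 0 of 10 against a background of 10.2% (9.17% with pNE-derived higher and 1.06% with aNE-derived higher). The count changed with the lists that entered. Without pNE_H, NKX2-1 and DBX2 (2 of 10) separated with aNE-derived higher, as did 27.2% of coding genes (8.51% with pNE-derived higher). Without both hindbrain lists, NKX2-1, OLIG2 and DBX2 (3 of 10) separated with aNE-derived higher, against 46.2%, and none with pNE-derived higher, against 10.2%. Without both midbrain lists, SHH, PTCH1, NKX2-2, NKX6-2 and DBX1 (5 of 10) separated with pNE-derived higher, against 27.3%, and none with aNE-derived higher, against 1.74%. Per member, over all 6 lists, exact two-sided permutation tests over the 20 splits gave p from 0.2 to 0.9 for covered bases, where 0.1 is the smallest p that 3 lists against 3 can reach. The ratio of mean covered bases, pNE-derived over aNE-derived, ran from 0.926 in OLIG2 (8113 ± 1262 against 8760 ± 1172 bp, SD over 3 lists in different media) to 1.24 in NKX2-2 (5514 ± 973 against 4452 ± 514 bp).

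As a share of the list 1 member separated. DBX2 had 47.7 to 56.0 bp per Mb in the aNE-derived lists and 43.9 to 44.7 in the pNE-derived ones (exact permutation p = 0.100). On this scale 27.4% of all coding genes separated with aNE-derived higher and 5.74% with pNE-derived higher, so 1 of 10 was below the background of 33.1%. The scaling moved the median gene's ratio from 1.03 to 0.906, and with it the members' median from 1.03 to 0.897. The ratio lay above 1 in covered bases and below 1 as a share in 5 members, SHH at 1.14 and 0.983, GLI1 at 1.02 and 0.896, NKX6-1 at 1.02 and 0.898, NKX6-2 at 1.07 and 0.935, and DBX1 at 1.03 and 0.893.

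**Figure D4:**
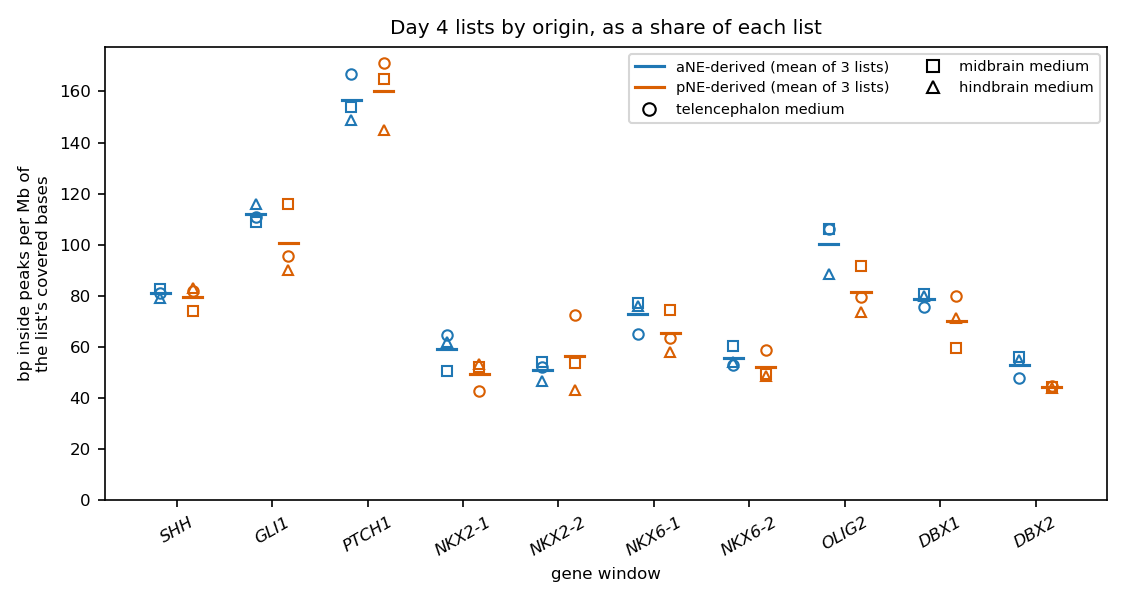
Covered bp per Mb of each list's covered bases (vertical axis) in the 6 day 4 lists for each gene window (horizontal axis), aNE-derived in blue and pNE-derived in orange, with symbols for the medium and a line at the mean of the 3 lists. The pNE-derived lists of DBX2 lie together at 43.9 to 44.7, below the aNE-derived ones at 47.7 to 56.0, and the origins overlap in the other 9 genes.

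Paired by medium, exact two-sided sign-change tests gave p of at least 0.5 for covered bases at each member, where 3 pairs cannot go below 0.25. As a share NKX6-1, OLIG2 and DBX2 were lower in the pNE-derived list in all 3 media (exact p = 0.25 each). How many coding genes did so was not counted. It is at least the 27.4% that separated with aNE-derived higher as a share, since those are lower in every medium. These 3 members were therefore not shown to stand out from coding genes in general.

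Split by medium, the direction of the origin difference was not the same. In the midbrain medium pNE_M had fewer covered bases than aNE_M at 10 of 10 members, as at 77.5% of coding genes. In the hindbrain medium pNE_H had more than aNE_H at 10 of 10, as at 95.3% of coding genes. In the telencephalon medium 6 of 10 were higher in pNE_T, against 36.0%. The median ratio over coding genes, with 300 bp added to both values, was 0.886 in midbrain and 1.30 in hindbrain medium. Over the members, with nothing added, it was 0.856 and 1.35, so the 2 pairs of medians are not the same measure. With the share the numbers higher in the pNE-derived list were 3 in midbrain (background 38.0%), 1 in hindbrain (25.3%) and 5 in telencephalon medium (31.2%), so the hindbrain direction did not hold as a share. A member was called between 2 single lists when its covered bases, with 300 bp added to both, differed at least 1.5-fold, a rule of size and not a test. SHH was called in pNE_H over aNE_H (1.59, or 1.05 in shares), where 25.6% of coding genes were called higher and 0.286% lower. None of the 10 was called between aNE_T and pNE_T (background 3.71% higher and 2.03% lower) or between aNE_M and pNE_M (1.57% and 4.48%).

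Hindbrain against telencephalon medium gave summed covered bases of 67682 bp in aNE_H and 71712 bp in aNE_T, a ratio of 0.944, with no member called (background 2.47% higher and 3.11% lower). Among pNE derivatives the sums were 91670 bp in pNE_H and 70587 bp in pNE_T, a ratio of 1.30, or 0.899 as a share, since the whole pNE_H list was 1.44 times as long in bases. At 9 of 10 members the value was higher in pNE_H, the exception being NKX2-2 (5548 against 6470 bp). NKX2-1 was the only one called, at 6903 against 3817 bp (1.75 with 300 bp added, 1.25 in shares), with 19.6% of coding genes called higher and 0.291% lower. Midbrain over telencephalon medium called none in either origin, against 1.87% higher and 0.745% lower for aNE derivatives and 1.64% and 4.13% for pNE derivatives.

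The earlier steps touched single members. From hPSC to DE, NKX2-2 was called lower (5807 to 3633 bp, 0.644 with 300 bp added, 0.565 in shares), where 0.367% of coding genes were called lower and 2.72% higher. The number of NKX2-2 peaks was 11 in both lists. From DE to aNE no member was called (0.128% higher and 9.12% lower), nor from DE to pNE (1.11% and 6.03%). Between the day 2 populations DBX2 was called higher in pNE (4896 against 2530 bp, 1.84 with 300 bp added, 1.69 in shares), with a background of 3.82% higher and 0.546% lower. Summed over the 10 members, covered bases were 66049 bp in aNE and 71304 in pNE. That is 875 and 827 bp per Mb of the list, so the direction turned with the scale.

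Of the 286 member regions, 71 (24.8%) held a peak in all 10 lists, against 18.5% of the 357053 regions within 50 kb of any protein-coding gene. Another 96 (33.6%) held a peak in 1 list, against 32.4%, and 26 of these (9.09% of all) were in pNE_H, against 9.29%. The regions in 1 list were narrow, with a median widest peak of 177 bp against 941 bp for those in all 10. By position, 61 regions lay in the body of a member, 130 in another annotated gene only and 95 outside genes. Exons and introns were not used here.

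A set of 5 regions (1.75%) was found in all pNE-derived and no aNE-derived day 4 list, against a background of 2.08%, at SHH, NKX2-1 (both of its regions above), NKX2-2 and NKX6-2. Another 5 (1.75%) showed the reverse, against 0.670%, at SHH, GLI1, PTCH1 and DBX1 (both of its regions above). In lists reduced to their widest peaks at 1 common length, 3 of the 5 and 2 of the 5 kept their split. Those were the SHH region at 31.6 kb, NKX2-1 at 39.6 kb and NKX2-2 at 4.87 kb for the first set, and SHH at 45.5 kb and DBX1 at 32.9 kb for the second. At 3 regions (1.05%), of PTCH1, OLIG2 and DBX2, hPSC and DE had no peak and all 6 day 4 lists had one, against 0.960%. The PTCH1 and DBX2 regions, 2 of the 286 (0.699%, against 0.533%), also had a peak in pNE and none in aNE, and no region (0, against 0.0179%) had the reverse. On day 2 alone, 38 regions (13.3%, against 12.2%) had a peak in pNE and not in aNE, and 17 (5.94%, against 5.93%) in aNE and not in pNE.

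Another 3 regions (1.05%) had a peak in hPSC and DE and in no day 4 list, against 3.79%. These were chr7:155757910-155758093 near SHH, chr9:95486496-95486769 in PTCH1 and chr11:20154418-20154628 near DBX1, none with a peak over 266 bp. Both telencephalon lists and no other day 4 list had a peak at 3 regions (1.05%, against 0.660%), at SHH, OLIG2 and DBX1. Of these chr21:33034984-33035498, 6.06 kb from OLIG2, had 285 bp in aNE_T and 198 bp in pNE_T and also a peak in all 4 earlier lists. Both hindbrain lists and no other day 4 list had one at 3 (1.05%, against 1.06%), at PTCH1, NKX6-1 and DBX1. The widest of them, chr9:95564635-95565549 near PTCH1, had 247 bp in aNE_H and 893 bp in pNE_H. There pNE already had a narrower peak on day 2, and hPSC, DE and aNE had none. Both midbrain lists and no other day 4 list had one at 0 of the 286 regions, against 0.192%.

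**Figure D5:**
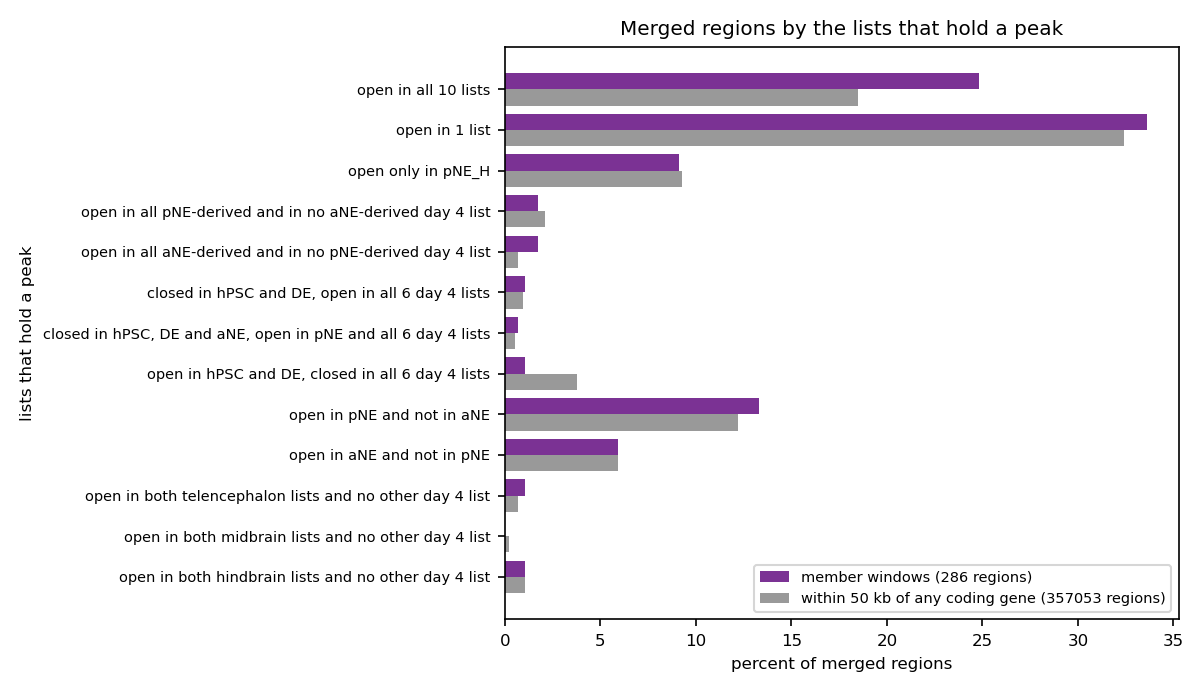
Percent of merged regions (horizontal axis) in each class of lists that hold a peak (vertical axis), for the 286 regions of the member windows and for all 357053 regions within 50 kb of a protein-coding gene. Regions with a peak in all 10 lists made up 24.8% of the member regions and 18.5% of all, and regions split by day 4 origin were few in both.

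The rest of the pathway was read from lists of other genes. Of 15 other hedgehog genes (among them SMO, SUFU, GLI2, GLI3, HHIP and BOC) 0 separated by origin in covered bases, against 9.73% of coding genes. As a share 3 of the 15 (GLI2, CDON and SCUBE2) separated with aNE-derived higher, against 27.4%, and 0 with pNE-derived higher, against 5.74%. GLI2, the main activator of the GLI family, had 341 to 351 bp per Mb in the aNE-derived lists and 299 to 316 in the pNE-derived lists. The median day 4 ratio of the 15 was 1.03, the same as that of all coding genes.

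Among 18 other ventral neural tube genes GATA3 and SPON1 separated with pNE-derived higher on both scales, 2 of 18 where 8.43% of coding genes did so in covered bases and 5.74% as a share. GATA3, a factor of V2b interneurons and also of surface ectoderm, had 7234, 6533 and 6556 bp in the aNE-derived lists and 8945, 7772 and 12481 bp in the pNE-derived lists, a ratio of 1.44. SPON1, which encodes the floor plate protein F-spondin, had 15863, 16006 and 11644 bp against 19488, 17218 and 24221 bp, a ratio of 1.40. Another 3 of the 18 (OLIG1, EN1 and GATA2) separated with aNE-derived higher as a share only, against 27.4%. The OLIG1 window overlaps that of the member OLIG2 and shares peaks with it. Of 14 dorsal genes, 1 (OLIG3) separated in covered bases, with pNE-derived higher, against 8.43%. As a share 5 of the 14 separated, against 33.1%, and 4 of them had aNE-derived higher, against 27.4%.

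For each member the gene on another chromosome with the most similar share over the 10 lists was found by Pearson's r, as a description. The points share the lists, and with so many candidate genes a high r is easily found. OLIG2 was most like LHX2 (r = 0.974), a factor of early forebrain and eye. GLI1 was most like ANKRD9 (0.987), and 321 genes reached at least 0.9 with GLI1. SHH and NKX6-2 had no gene at 0.9, their closest being CMTM8 (0.897) and FDX1 (0.893). The closest genes of the other members were MAPRE2 for PTCH1 (0.948), FAM13B for NKX2-1 (0.977), ELL for NKX2-2 (0.926), C9orf40 for NKX6-1 (0.928), CEMP1 for DBX1 (0.905) and TRIM75 for DBX2 (0.936).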

How the data were processed

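The authors deposited 1 peak list per population, on hg38 per the submitters' processing notes, which name Bowtie2 and MACS2, with no version, threshold or role. The values are peak coordinates only, with no score, so a list cut at another threshold would change every count. How the 3 replicates were combined is not given in the sources used here. Gene positions came from a RefSeq table of GRCh38.p14. On chromosomes 1 to 22, X and Y, peaks were counted where they overlapped a gene body with 50 kb on each side by at least 1 bp, and merged across the 10 lists where they overlapped. The 3 lists of each day 4 origin were compared by exact two-sided permutation over 20 splits, and single lists by a 1.5-fold difference after adding 300 bp. The members and gene lists were chosen with earlier results of these data known. Named genes were the members, the listed genes that separated by origin on both scales, and the closest gene by Pearson's r. OLIG1, EN1, GATA2, OLIG3, GLI2, CDON, SCUBE2, OTX2 and FEZF1 fall outside that rule and were named, after their values were seen, to spell out small counts. Regions named beyond the widest shared and the widest origin-split region of each member were chosen after their values were seen. A listed hedgehog gene is not reported here, which leaves 15 of 16. Counting was checked against a direct count on real peaks of the hPSC and pNE_H lists, and the separation rule on simulated peak numbers. Python 3.11.15, numpy 2.4.6 and pandas 2.3.3 were used.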

Additional observations from a re-analysis of the deposited data

Results flagged for a closer look

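NKX2-1 moved in opposite directions between the hindbrain and telencephalon media in the 2 origins. Its covered bases, with 300 bp added, were 1.75 times as many in pNE_H as in pNE_T, and 0.929 times as many in aNE_H as in aNE_T. Each value compares 2 lists, and the difference between the origins was not tested. The pNE_H list as a whole had 1.44 times the bases of pNE_T, and as a share of the list the NKX2-1 ratio was 1.25. The opposite directions were not particular to NKX2-1. The median ratio over coding genes, with 300 bp added, was 1.28 for pNE_H over pNE_T and 0.931 for aNE_H over aNE_T. SHH, PTCH1, NKX6-2 and OLIG2 also moved in these 2 directions, and GLI1, NKX2-2, NKX6-1, DBX1 and DBX2 did not.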

How the results depend on the processing

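The ratio of pNE_H to pNE_T over the members was 1.30, and it turned to 0.899 as a share of the list's covered bases and to 0.834 with peaks as a share of the list's peaks. The number of members separated by origin was 0, and became 1 as a share (DBX2, aNE-derived higher). It was 3 without the hindbrain medium (NKX2-1, OLIG2 and DBX2, aNE-derived higher), 5 without the midbrain medium (SHH, PTCH1, NKX2-2, NKX6-2 and DBX1, pNE-derived higher) and 2 without pNE_H alone (NKX2-1 and DBX2). With 2 lists left per origin, or 2 against 3, separation is easier to reach. Regions with a peak in all 10 lists numbered 71, and 39 with 10 kb flanks, 107 with 100 kb flanks and 43 with the widest 50% of each list. The 5 pNE-derived regions became 2 with 10 kb flanks and 3 with the widest peaks at 1 common length. The 5 aNE-derived regions became 2 with 10 kb flanks and 1 with the widest 50%. Shorter flanks hold fewer regions, and the cause of the other changes was not tested. The ratios of the day 4 origins, the day 2 populations, aNE_H to aNE_T and DE to hPSC stayed within their spread in all 12, 8, 8 and 8 alternatives run. This spread was 1 SD over the 3 media for the origins. For the other ratios the width of a 95% exact binomial interval from the peak numbers was set around the ratio of covered bases. That width takes peaks as independent and holds no replicate error. It does not measure the spread of covered bases, so staying within it is a description only. Within these spreads some directions turned. As a share the origins went from 1.06 to 0.927 and day 2 from 1.08 to 0.945. With fixed 500 bp peaks DE over hPSC went from 0.945 to 1.11. The settings that pair the media, leave out pNE_H, use peak shares or concern regions were chosen after seeing the data. Leaving out replicates and ranking by a caller's score were not run. No paired analysis was possible because the lists carry no value per replicate. This does not hold for the media, which pair the day 4 lists, and there 0 members had the same direction in all 3 media in covered bases.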
